A study of Mus musculus with 32 samples.

Results

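The transcription factor p53, encoded by Trp53, was examined together with 9 genes that it is known to activate: Mdm2, Cdkn1a, Ccng1, Bax, Bbc3, Pmaip1, Eda2r, Phlda3 and Sesn2. The 10 genes were taken by symbol from the 32285 genes counted in each library. The study profiled single cells of the mouse dorsal telencephalon, from which the cerebral cortex develops, in wild type (WT) embryos and in embryos with 1 functional copy of Chd8 (Chd8+/-), all of strain C57BL/6J. There were 8 groups of 4 libraries each: each genotype at 4 stages, from embryonic day (E) 12.5 through E14.5 and then E16.0 to the last, E17.5. Every library came from 1 embryo, the medial part of the tissue had been cut away, and each group held 2 males (M1, M2) and 2 females (F1, F2) from litters in which WT and Chd8+/- embryos were matched by sex, and the WT and Chd8+/- libraries with the same sex and number at a stage were taken as a pair. The Chd8 allele itself, and hence which exons it removes, is not given in the sources used here.

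In most dividing cells p53 is made all the time and destroyed all the time, because MDM2 marks it for degradation. DNA damage or disturbed ribosome assembly blocks MDM2, p53 builds up, and it switches on genes that halt the cell cycle or start apoptosis, Mdm2 among them, which closes a negative feedback loop. In the embryonic cortex the loss of newborn neurons and progenitors under replication stress is a known p53 outcome, and the chromatin remodeller CHD8 has been reported to repress p53 at its target promoters, which is the question the genotype comparison addresses here. Because p53 is controlled mainly as a protein, Trp53 RNA is not a measure of p53 activity.

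Each gene was followed in 3 sets of cells, those with at least 1 molecule (UMI, a unique molecular identifier) of Sox2, a radial glia gene, of Eomes, an intermediate progenitor gene, or of Neurod6, a gene of excitatory neurons. Of 138226 retained cells, 53998 were Sox2-detected, 31788 Eomes-detected and 84998 Neurod6-detected, and 12495 were in none of these sets. A cell could be in several sets: 23928 cells had both Eomes and Neurod6. Counts were summed per library and set and are given as CPM, the usual scaling of counts to a common total, as mean ± SD over 4 libraries. Summed radial glia markers were highest in Sox2-detected cells (mean 7181 CPM, against 2527 and 1580 in the Eomes- and Neurod6-detected sets). Intermediate progenitor markers were highest in Eomes-detected cells (3902 CPM, against 1719 and 1621), and excitatory neuron markers in Neurod6-detected cells (3223 CPM, against 737 and 1914). The 3 genes were also detected in cells of other types: among 727 cells with microglial or endothelial markers, 10.6% had Sox2, 6.74% Eomes and 23.7% Neurod6, at a median depth of 11455 UMIs. Free RNA, remaining doublets and expression in those cells were not told apart. After thinning to 2000 UMIs these were 1.40%, 1.26% and 6.84%.

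The libraries held 2399 to 6951 retained cells with median depths of 4017 to 10727 UMIs. At E12.5 the Chd8+/- libraries were on average shallower than the WT ones, with a mean over libraries of the median depth in Eomes-detected cells of 6201 ± 2456 UMIs against 8790 ± 764 (SD, n = 4). The E12.5 M2 pair carried another library code than the rest of that stage, the WT M1, Chd8+/- M1 and Chd8+/- F1 libraries at E17.5 stood apart from their groups, and stage and library code cannot be told apart. Chd8 itself measured 42.6, 40.1, 39.0 and 38.7 CPM in Sox2-detected cells of the E12.5 WT libraries M1, M2, F1 and F2. It measured 32.7, 32.7, 18.8 and 32.2 CPM in the Chd8+/- libraries in the same order, so the groups did not overlap. Over all stages Chd8 was lower in the Chd8+/- library of 15 of 16 pairs in every set, a log2 difference of -0.27, -0.26 and -0.29 (edgeR quasi-likelihood test, adjusted p = 0.139, 0.0826 and 0.143 in the Sox2-, Eomes- and Neurod6-detected sets).

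Promoter sequence is shown for 4 members: Cdkn1a, Ccng1 and Phlda3, whose RNA was found in the same cells below, and Mdm2, whose RNA was not called higher in those cells. The windows are the 250 bases before the RefSeq start site on build GRCm38.p6, printed 5′ to 3′ along the gene's strand, at chr17:29090729-29090978 (plus strand, the first of the 2 Cdkn1a start sites), chr11:40755287-40755536 (minus strand, Ccng1), chr1:135765835-135766084 (plus strand, Phlda3) and chr10:117710759-117711008 (minus strand, Mdm2). Capitals mark every match, on either strand, to the p53 half-site consensus, the 10-base unit of which a full p53 response element holds a pair. No matches overlapped.
Cdkn1a: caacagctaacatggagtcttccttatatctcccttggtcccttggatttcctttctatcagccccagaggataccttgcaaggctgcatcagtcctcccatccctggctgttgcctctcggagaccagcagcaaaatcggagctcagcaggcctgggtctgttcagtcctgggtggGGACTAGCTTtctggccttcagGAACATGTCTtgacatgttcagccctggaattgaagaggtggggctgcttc
Ccng1: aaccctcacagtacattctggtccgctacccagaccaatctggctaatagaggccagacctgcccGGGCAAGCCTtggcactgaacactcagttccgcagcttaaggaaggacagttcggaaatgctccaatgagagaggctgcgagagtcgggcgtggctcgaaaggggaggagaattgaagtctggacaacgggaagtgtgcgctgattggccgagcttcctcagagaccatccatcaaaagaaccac
Phlda3: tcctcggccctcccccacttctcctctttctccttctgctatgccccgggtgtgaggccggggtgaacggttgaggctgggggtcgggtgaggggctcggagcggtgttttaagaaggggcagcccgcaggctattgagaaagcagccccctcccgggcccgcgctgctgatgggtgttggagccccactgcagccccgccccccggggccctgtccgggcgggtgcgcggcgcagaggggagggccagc
Mdm2: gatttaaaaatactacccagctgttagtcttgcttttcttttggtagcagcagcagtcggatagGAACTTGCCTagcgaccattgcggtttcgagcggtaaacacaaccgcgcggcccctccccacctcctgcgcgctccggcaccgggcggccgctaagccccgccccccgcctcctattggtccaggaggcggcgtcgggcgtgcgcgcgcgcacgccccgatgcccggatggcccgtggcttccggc
The Cdkn1a window held 2 half-sites, which began 73 and 51 bases before the start site, and the window of the other Cdkn1a start site (chr17:29093519-29093768) held none. Ccng1 and Mdm2 held 1 each, 185 and 186 bases before it, and Phlda3 held none. Windows of Bax and Trp53 also held 1 half-site, and those of Bbc3, Eda2r and Sesn2 held none. Pmaip1 was not among the windows examined. Over all genes, 2341 of 32851 such windows (7.13%) had at least 1 match. A match of letters is a description of the sequence and not a measured binding site. The Mdm2 response element known from textbooks lies in the first intron, outside the window.

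Trp53 (ENSMUSG00000059552, chromosome 11, 69580359 to 69591873 on GRCm38) was present in every library and set. After every cell had been thinned to 2000 UMIs, which makes depths equal, 22.1 to 29.5% of WT Sox2-detected cells had a Trp53 UMI, as the range over stage means. In WT Sox2-detected cells Trp53 measured 181 ± 10.9 CPM at E12.5, 190.1 ± 19.4 at E14.5, 187 ± 5.43 at E16.0 and 149 ± 21.9 at E17.5. The 4 WT libraries at E17.5 had 146, 161, 170.0 and 120.0 CPM, and all of them were below the lowest E12.5 library (173 CPM). In the fit across all genes Trp53 fell by 0.44 ± 0.09 (SE) on the log2 scale from E12.5 to E17.5 in these cells (adjusted p = 7.14e-05). Over the same stages summed oligodendrocyte precursor markers went from 1.29 to 355 CPM and interneuron markers from 17.4 to 372 CPM in the WT Sox2-detected set, and cells with genes of other cell types (interneurons, oligodendrocyte precursors, endothelium, pericytes, microglia or fibroblasts) from 4.06% to 37.2% of it. Without such cells and those with Cajal-Retzius genes Trp53 fell by 0.50 (adjusted p = 1.49e-05). In Eomes-detected cells the WT means were 163, 193, 195 and 164 CPM in stage order. The E17.5 libraries there ran from 131 to 197 CPM and overlapped those of E12.5, and the change was not called. Neurod6-detected cells had the lowest Trp53, with WT means of 146, 152, 148 and 125 CPM.

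Mdm2, the ubiquitin ligase that p53 induces and that removes p53, was lowest in Sox2-detected cells, with WT means of 45.1 to 59.5 CPM over the stages. The WT means were 66.4 to 82.7 CPM in Eomes-detected and 56.9 to 67.6 CPM in Neurod6-detected cells. No step between neighbouring WT stages was called for Mdm2 in any set. Its level varied by library within stages, and at E14.5 it split with sex and with library code, which cannot be told apart there, since the male libraries carry other codes than the female ones. At E14.5 the WT libraries of Sox2-detected cells had 71.4 and 64.2 CPM in the males and 45.8 and 51.7 CPM in the females. The Chd8+/- libraries of that stage had 67.5 and 59.5 CPM in males and 47.6 and 44.7 CPM in females, so both males were above both females in each genotype.

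**Figure D1:**
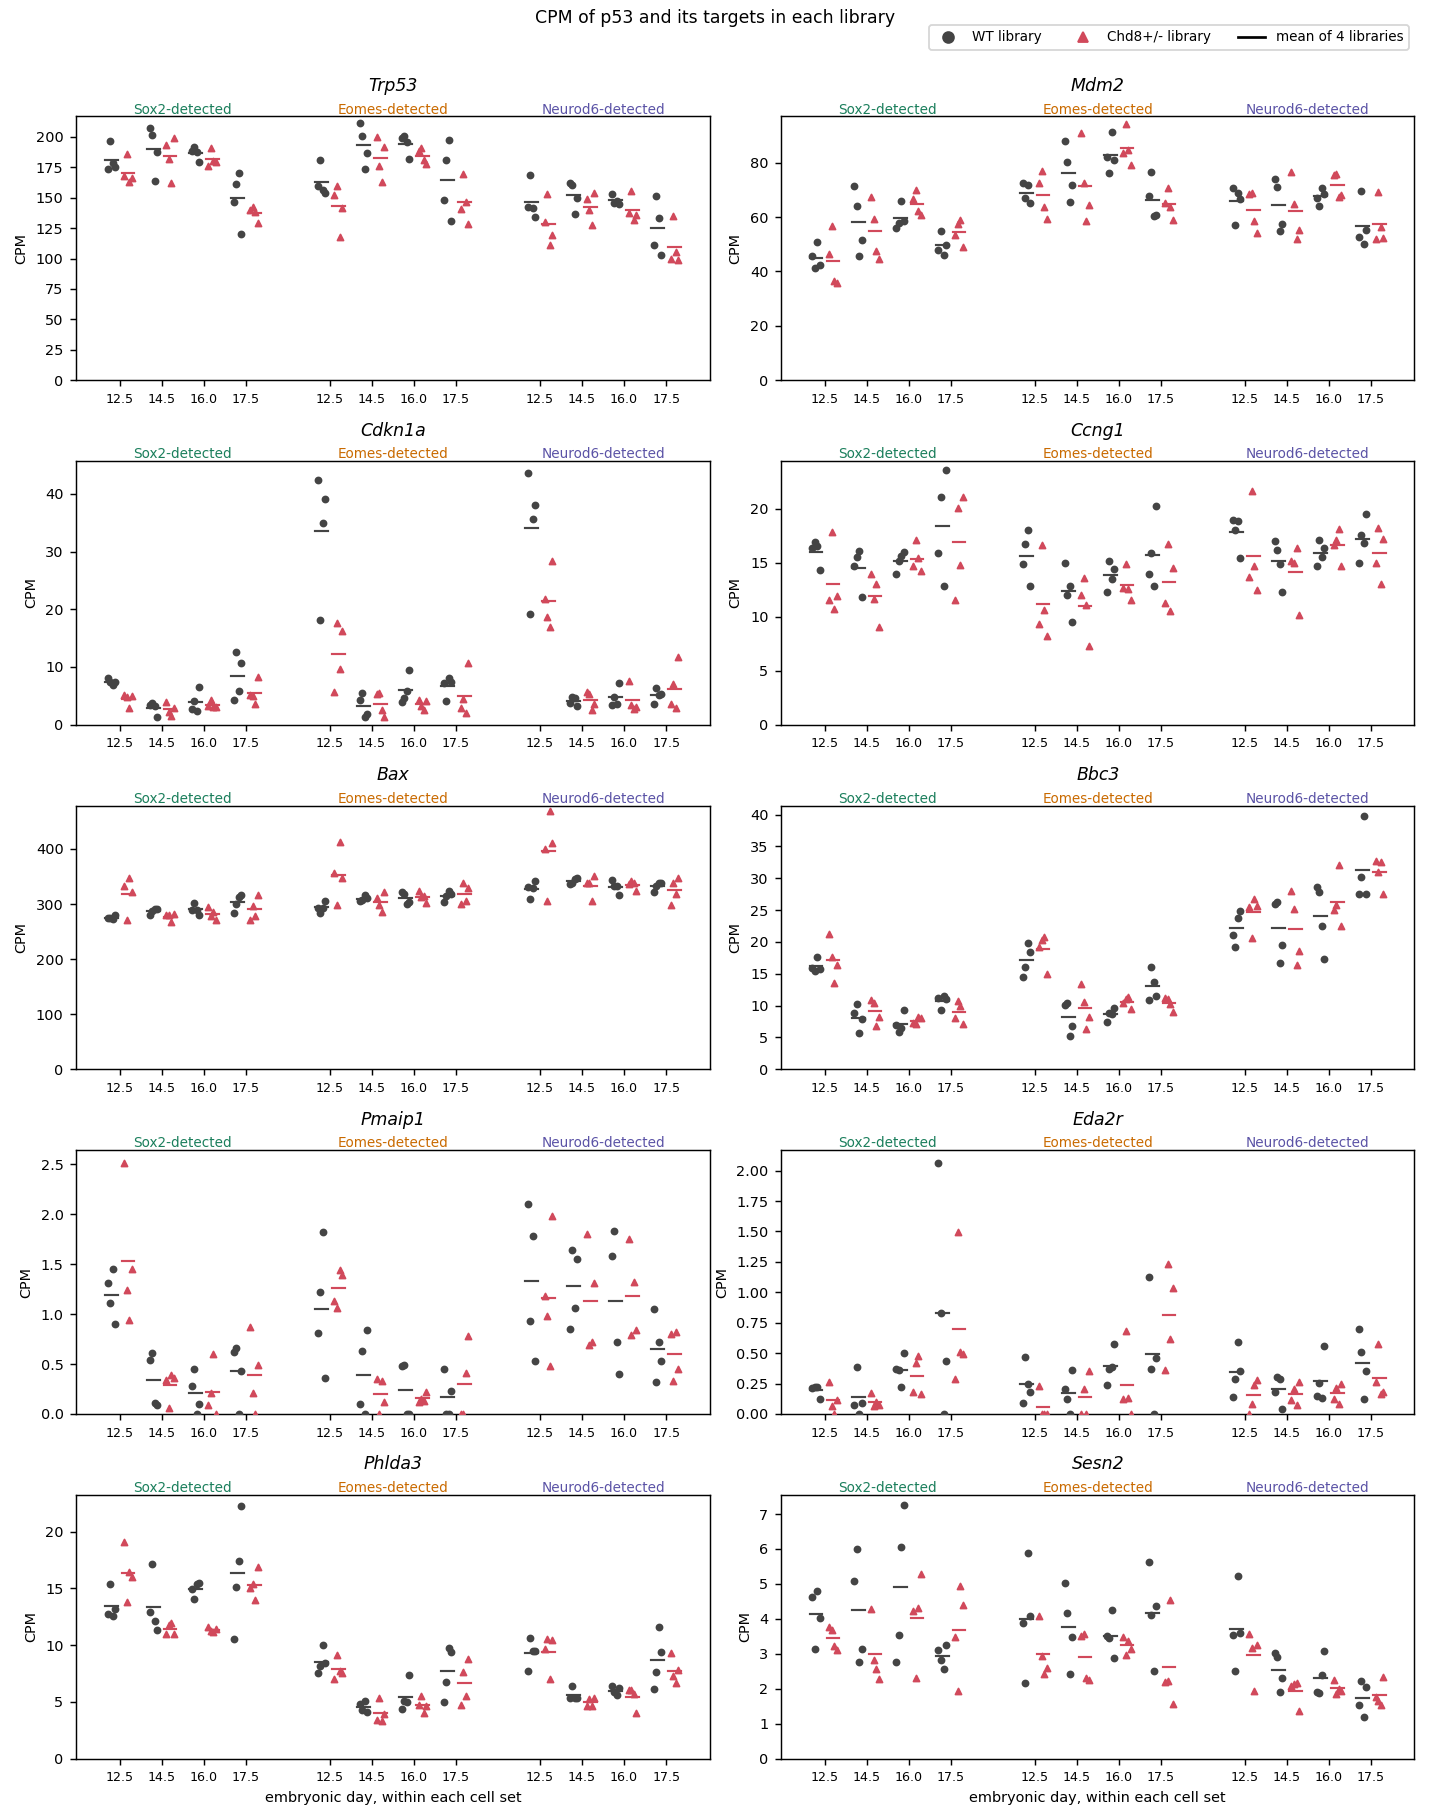
CPM of the 10 genes (y axis, linear, from 0) by embryonic day within each cell set (x axis). Each point is 1 library, circles WT and triangles Chd8+/-, and bars are means of 4 libraries. Cdkn1a in Eomes- and Neurod6-detected cells stands out at E12.5, where WT libraries reach 42.5 and 43.6 CPM. In those sets no library of a later stage exceeds 11.7 CPM.

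Cdkn1a (ENSMUSG00000023067, chromosome 17, 29090976 to 29100727), which encodes the cyclin-dependent kinase inhibitor p21, fell farthest of the members from E12.5 to E14.5 in the Eomes- and Neurod6-detected sets. At E12.5 the WT libraries M1, M2, F1 and F2 had 42.5, 18.2, 34.9 and 39.0 CPM in Eomes-detected cells and 43.6, 19.2, 35.6 and 38.1 CPM in Neurod6-detected cells. In Sox2-detected cells they had only 8.04, 7.44, 6.84 and 7.46 CPM. The M2 library, the one with another library code, was the lowest in both of the high sets. By E14.5 the WT means were 2.96 ± 1.13, 3.21 ± 1.98 and 4.08 ± 0.691 CPM in the Sox2-, Eomes- and Neurod6-detected sets. Those were falls of 1.46 ± 0.30, 3.39 ± 0.39 and 3.09 ± 0.36 on the log2 scale (adjusted p = 3.49e-04, 1.01e-07 and 8.30e-08). The Sox2-detected fall was 0.46 (adjusted p = 0.552) with cells thinned to 2000 UMIs. From E16.0 to E17.5 Cdkn1a rose in Sox2-detected cells by 1.19 ± 0.33 (adjusted p = 0.00954), where the E17.5 WT libraries had 4.34, 12.6, 5.90 and 10.6 CPM. Without WT E17.5 M2 the rise was 0.90 (adjusted p = 0.0783). The makeup of the set changed at the same step, with oligodendrocyte precursor markers at 20.8 and 355 CPM, interneuron markers at 91.8 and 372 CPM and cells with genes of other types at 8.75% and 37.2%. Without those cells the rise was 0.53 and was not called (adjusted p = 0.387). Of the 22 thinned cells with Cdkn1a at E17.5, both genotypes counted, 7 were left.

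Of the other genes tied to growth arrest and metabolism, Ccng1, which encodes cyclin G1, had WT means between 12.3 and 18.4 CPM in all sets and stages, and no WT stage difference of it was called. Sesn2, which encodes sestrin 2, an inhibitor of mTORC1 signalling, fell in Neurod6-detected cells from 3.72 ± 1.12 CPM at E12.5 to 1.74 ± 0.468 CPM at E17.5, by 1.19 ± 0.23 on the log2 scale (adjusted p = 8.19e-05). Its WT libraries at E12.5 (2.51 to 5.22 CPM) lay above all those at E17.5 (1.2 to 2.21 CPM).

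Among the apoptosis genes, Bax, the pore-forming Bcl2 relative, was the steadiest: WT means ran from 276 to 303 CPM in Sox2-detected, 294 to 315 CPM in Eomes-detected and 327 to 342 CPM in Neurod6-detected cells, and no WT stage difference was called. Bbc3 (ENSMUSG00000002083, chromosome 7, 16308393 to 16318205), which encodes PUMA, a BH3-only trigger of apoptosis, was cell-set specific in its course. In WT Sox2-detected cells it went from 16.2 ± 1.02 CPM at E12.5 to 8.12 ± 1.92 at E14.5, 7.18 ± 1.52 at E16.0 and 10.8 ± 0.994 at E17.5. The lowest E12.5 library (15.4 CPM) was above every library of the later stages, whose highest was 11.5 CPM. In Neurod6-detected cells Bbc3 instead had 22.2 ± 2.53 CPM at E12.5 and 31.3 ± 5.77 at E17.5, a rise of 0.41 ± 0.18 on the log2 scale (adjusted p = 0.0433). The falls from E12.5 to E14.5 were 1.11 on the log2 scale in both the Sox2- and the Eomes-detected set (adjusted p = 1.13e-06 and 1.2e-05).

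Pmaip1, which encodes the BH3-only protein NOXA, was rare, with WT means of 0.170 to 1.34 CPM. In Sox2-detected cells it fell by 1.85 ± 0.53 on the log2 scale from E12.5 to E14.5 (adjusted p = 0.00712). Among thinned WT cells of that set 0.238% had a Pmaip1 UMI at E12.5 and 0% at E14.5, as means over libraries. A gene this rare can pass the filter on low counts through the E12.5 libraries in which it was higher, so nothing more is read from its call. Eda2r, which encodes a TNF receptor family member for ectodysplasin, was rarer still, with WT means of 0.137 to 0.832 CPM. It did not pass the filter on low counts in any of the 3 genotype and stage fits. Phlda3, which encodes a repressor of AKT signalling, was highest in Sox2-detected cells, with WT means of 13.4 to 16.3 CPM against 4.56 to 8.55 CPM in Eomes-detected and 5.59 to 9.32 CPM in Neurod6-detected cells. It fell between E12.5 and E14.5 in both of the latter sets, by 0.96 ± 0.20 and 0.75 ± 0.16 on the log2 scale (adjusted p = 4.23e-04 and 5.85e-04). Without the cells that held Cajal-Retzius genes, described below, those falls were 0.54 and 0.28 and were not called (adjusted p = 0.0506 and 0.249). In Neurod6-detected cells Phlda3 rose by 0.62 ± 0.17 from E16.0 to E17.5 (adjusted p = 0.0231), or by 0.59 without those cells (adjusted p = 0.0653).

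Read as counts, 3 of 9 members tested changed between WT E12.5 and E17.5 in Sox2-detected cells, where 59.2% of all genes were called: Trp53, Bbc3 and Pmaip1, all lower at E17.5. Pmaip1, here and in the counts below, is rare enough to pass the filter on low counts through the libraries in which it is higher. In Eomes-detected cells 2 of 8 changed against 49.8% of all genes, Cdkn1a (-2.48 ± 0.39, adjusted p = 4.03e-06) and Bbc3 (-0.52 ± 0.17, adjusted p = 0.0139). Neither was called without the cells of Cajal-Retzius genes (-0.58 and -0.29, adjusted p = 0.15 and 0.173), and Bbc3 was +0.07 in cells with Eomes alone of the 3 markers and -0.15 in thinned cells (adjusted p = 0.944 and 0.725). Without the 3 libraries apart at E17.5 Bbc3 was at -0.42 (adjusted p = 0.0657). In Neurod6-detected cells 6 of 9 changed against 59.7% of all genes, with Cdkn1a, Sesn2, Pmaip1, Trp53 and Mdm2 lower and Bbc3 higher. Most genes differ between these stages, and the members' share was below that background in the Sox2- and Eomes-detected sets and near it in the third. For E14.5 against E12.5 it was 3 of 9, 3 of 8 and 3 of 9 members, all lower at E14.5, against 37.8%, 29.7% and 38.1% of all genes called. The Sox2-detected count was 1, Bbc3, with thinned cells. The Neurod6-detected count was 1, Cdkn1a, with thinned cells, with at least 2 UMIs of the marker or without cells of Cajal-Retzius genes. Between E14.5 and E16.0 edgeR called none of the members (none at an unadjusted p under 0.05, and none by DESeq2), against 9.09%, 6.52% and 11.4% of all genes. From E16.0 to E17.5 it called 2 of 9, 1 of 8 and 1 of 9, all higher, against 22.2%, 7.56% and 5.85%.

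Several of these smaller changes rested on single libraries. In Neurod6-detected cells the count of 6 went to 3 without WT E12.5 M1, WT E12.5 F1 or WT E17.5 F2. The Trp53 change there was -0.31 with all libraries, lost its call without WT E12.5 M2, WT E17.5 M1 or WT E17.5 F2 (-0.24, -0.24 and -0.23), and was +0.05 in cells that had Neurod6 and neither of the other markers. The single Eomes-detected call from E16.0 to E17.5, Bbc3, was lost without WT E16.0 M1, M2 or F1 or WT E17.5 F1, and the count became 2 without WT E16.0 F2 or WT E17.5 M1. The Neurod6-detected Phlda3 call of that step was lost without WT E16.0 M2 or WT E17.5 F1.

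The cell sets were compared within the 16 WT libraries on cells with exactly 1 of the 3 genes, 32873 Sox2-only, 2590 Eomes-only and 53808 Neurod6-only cells in all libraries, with the library as a block. Between Neurod6-only and Sox2-only cells 9 of 10 members differed, where 82.9% of 14284 genes were called. Bbc3 had the largest difference, 1.94 ± 0.08 higher on the log2 scale in Neurod6-only cells (3.83-fold, adjusted p = 4.94e-23), followed by Pmaip1 (1.90 ± 0.41). Pmaip1 rests on few molecules and can pass the filter on low counts through the sums in which it is high. Without that filter 5 members were called higher in Neurod6-only cells, in place of 6. Cdkn1a (0.85 ± 0.24), Mdm2 (0.47 ± 0.04), Bax (0.40 ± 0.02) and Ccng1 (0.15 ± 0.06, adjusted p = 0.0243) were also higher in the neuronal set. Phlda3 (-1.32 ± 0.08), Sesn2 (-1.20 ± 0.19) and Trp53 (-0.48 ± 0.03) were lower in it. Eda2r did not differ by this test (-0.05, adjusted p above the threshold). The Ccng1 difference lost its call, at 0.11 to 0.12, without any 1 of WT E12.5 M1, F1 or F2, WT E14.5 M1 or M2, or WT E17.5 F1.

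Between Eomes-only and Sox2-only cells 3 of 10 members differed (36.9% of all genes): Cdkn1a was 2.41 ± 0.47 higher on the log2 scale (adjusted p = 5.82e-05), Mdm2 was 0.52 ± 0.07 higher and Phlda3 0.82 ± 0.16 lower. The Eomes-only cells were 2590 of the 31788 Eomes-detected cells. No fit of the exclusive sets left out cells with Cajal-Retzius or endothelial genes, and the part of such cells in these differences was not tested. Between Neurod6-only and Eomes-only cells 6 of 10 differed (61.2%), with Bbc3 (1.72) and Bax (0.39) higher and Sesn2 (-1.69), Cdkn1a (-1.56), Trp53 (-0.54) and Phlda3 (-0.50) lower. The Cdkn1a differences between sets belonged mostly to the earliest stage. At E12.5 Cdkn1a was 4.22 ± 0.36 higher on the log2 scale in Eomes-only and 3.34 ± 0.33 higher in Neurod6-only than in Sox2-only cells, and at E14.5 the values were 3.0 ± 0.81 (adjusted p = 0.00734) and 0.77 (adjusted p = 0.191). The first of these lost its call without WT E14.5 M1 or WT E14.5 M2 (2.57 in both, adjusted p = 0.139 and 0.103). At E16.0 they were 1.02 and 0.26, and at E17.5 1.41 and -0.95, none of them called. After thinning of every cell to 2000 UMIs the stage-averaged Cdkn1a difference between Eomes-only and Sox2-only cells was -0.79 (adjusted p = 0.565), and between Neurod6-only and Eomes-only cells +0.85 (adjusted p = 0.459). With all libraries and UMIs the Neurod6-only excess of Bbc3 was called at each of the 4 stages, at 0.94, 2.15, 2.40 and 2.27 in stage order, as were the lower Phlda3 (-0.42, -1.80, -1.77 and -1.29) and Trp53 (-0.84, -0.39, -0.48 and -0.22). The smallest of these values did not hold throughout. Bbc3 at E12.5 was 0.45 with thinned cells (adjusted p = 0.0576), and Phlda3 at E12.5 was -0.36 without WT E12.5 M2 (adjusted p = 0.0607) and -0.34 by DESeq2 (adjusted p = 0.113). Trp53 at E17.5 lost its call with thinned cells (0.03), at 2 marker UMIs or without the filter (-0.14 in both), and without WT E16.0 M1, WT E16.0 F2 or WT E17.5 M1 (-0.15, -0.15 and -0.11).

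**Figure D2:**
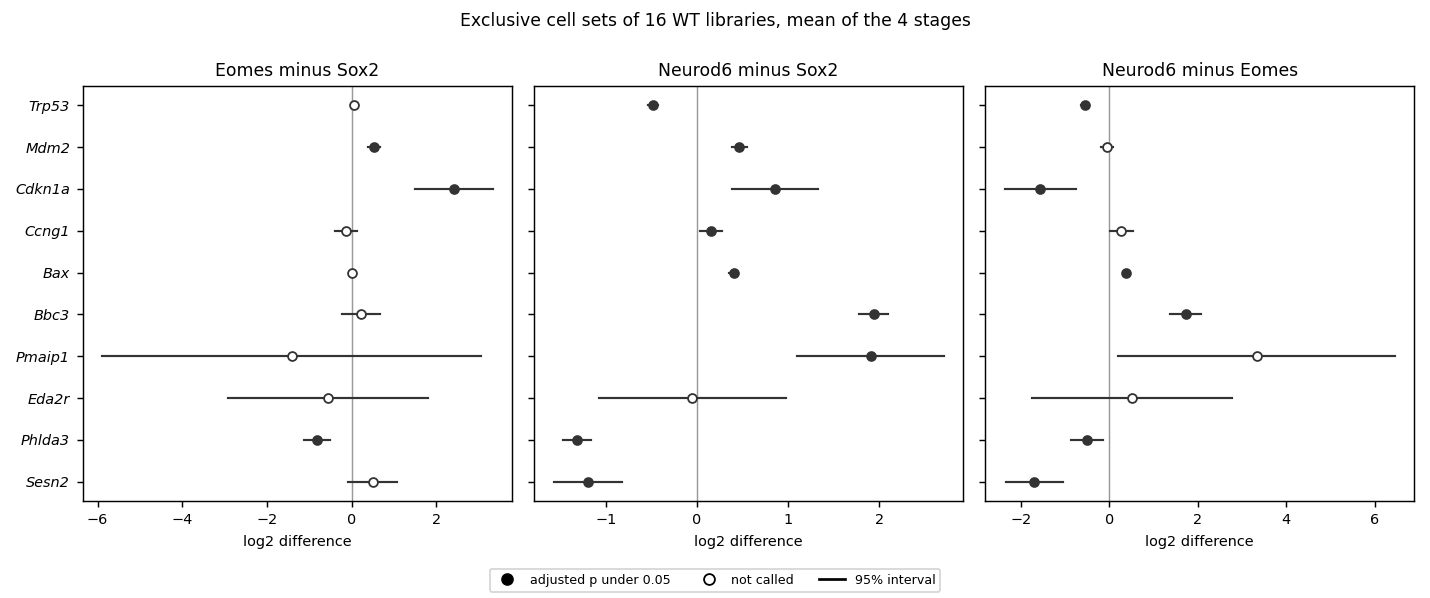
Log2 difference (x axis) of each gene between cell sets in the 16 WT libraries, averaged over the 4 stages, with bars of the 95% interval and filled circles for an adjusted p under 0.05. In the Neurod6 minus Sox2 panel Bbc3 (1.94) and Pmaip1 (1.90) lie farthest right and Phlda3 (-1.32) and Sesn2 (-1.20) farthest left. Pmaip1 rests on few molecules.

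Other genes around p53 differed between the sets in both directions, in a comparison in which 82.9% of all genes were called, so that the counts of called genes in a list are not a result about p53 genes. Of 26 regulators of p53 tested between Neurod6-only and Sox2-only cells, 9 were higher and 13 lower. The p53 homologue Trp73 (+1.94), the damage adaptor Trp53bp1 (+1.29) and Chd8 (+0.60) were higher in Neurod6-only cells, and the checkpoint kinases Chek1 (-3.70) and Chek2 (-3.54) and the remodeller Chd7 (-1.97) were lower. Of 39 other known p53 targets 15 were higher, among them Plk2 (+2.99) and Trp53inp1 (+2.58), and 20 were lower, among them Ddit4l (-4.24) and Mgmt (-3.29). The Bcl2 family and caspases gave 10 higher and 9 lower of 20, with Hrk (+1.34) and Bcl2l1 (+1.09) among the higher and Casp8 (-2.67) and Bak1 (-1.82) among the lower. All 22 cell cycle genes, mitotic and replication genes that fall when p21 is induced, were lower in Neurod6-only cells, and all 22 were lower in Eomes-only than in Sox2-only cells as well. In the latter comparison 36.9% of all genes were called, 3558 of 14284 of them lower.

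Over WT development from E12.5 to E17.5 the same lists were again mixed, except for the cell cycle genes. All counts here stand beside 59.2%, 49.8% and 59.7% of all genes called in the Sox2-, Eomes- and Neurod6-detected sets, and nothing about p53 genes is read from them. In Sox2-detected cells 12 of 38 other p53 targets rose, Inka2 (+1.95), Plk2 (+1.57) and Sesn1 (+1.48) among them, and 11 fell. In Eomes- and Neurod6-detected cells 9 of 34 and 8 of 36 rose and 12 and 15 fell, with the growth arrest gene Gadd45a at -2.24 and -2.87. Of the regulators, 4, 4 and 8 of 26 rose and 11, 7 and 9 fell in the 3 sets, with Chek1 lower in each of them (-0.95, -0.88 and -1.79) and Trp73 lower in the Eomes- and Neurod6-detected sets (-1.90 and -2.73). Of 22 cell cycle genes 14, 16 and 21 fell and 1, 1 and 0 rose. Stress genes, kept as a guide to handling of the tissue, gave 7 of 16, 8 of 14 and 10 of 17 lower and 3, 2 and 1 higher at E17.5, with Atf3 at -4.00, -3.34 and -4.40. Their part in the members' changes between stages was not tested.

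The high Cdkn1a at E12.5 came from few cells. In WT Eomes-detected cells 64 of 4509 cells had at least 5 Cdkn1a UMIs each and together held 81.4% of the 1525 Cdkn1a UMIs. Those cells numbered 17, 8, 19 and 20 in libraries M1, M2, F1 and F2. In the Chd8+/- libraries 16 of 3582 cells passed the same level and held 55.7% of 427 UMIs, 12 of them in M2, 4 in F2 and none in M1 or F1. Of the 64 WT cells 57, and of the 16 Chd8+/- cells 14, also had at least 2 UMIs of Reln, Trp73, Lhx1, Lhx5, Calb2 and Ebf3, genes of Cajal-Retzius neurons, an early-born, reelin-secreting class at the cortical surface. The 2-UMI level was chosen after the values were seen. Both it and the level of 5 Cdkn1a UMIs are easier to reach in deeper cells. The median depth of Eomes-detected cells was 9604.5 UMIs in Chd8+/- M2 and 5659, 3739 and 5802 UMIs in Chd8+/- M1, F1 and F2. In Neurod6-detected cells 94 WT cells (86 with these genes) and 41 Chd8+/- cells (35 with these genes) had 5 or more Cdkn1a UMIs, holding 77.0% of 1883 and 57.9% of 856 UMIs.

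Cells with Cajal-Retzius genes made up 7.87 ± 2.11% of WT and 5.71 ± 2.79% of Chd8+/- Eomes-detected cells at E12.5, and 13.9 ± 2.68% and 8.90 ± 1.74% of Neurod6-detected cells. They were at most 1.48% of any set, as a group mean, at the later stages. Within them, in the Eomes-detected set, Cdkn1a reached 400, 206, 246 and 287 CPM in the WT libraries M1, M2, F1 and F2 and 26.5, 163, 56.5 and 274 CPM in the Chd8+/- libraries. Cdkn1a was lower in the Chd8+/- library of each of the 4 pairs, by little in F2, while the groups as a whole overlapped, since the Chd8+/- F2 library lay among the WT ones. In the remaining Eomes-detected cells Cdkn1a was 11.8, 6.37, 8.57 and 8.97 CPM in WT and 4.73, 4.42, 5.27 and 6.01 CPM in Chd8+/- libraries, still without overlap but at a lower level in both. The number of all genes that separate the groups in this way was not counted. The Neurod6-detected set was less regular at E12.5. There Cdkn1a was lower in Chd8+/- in 3 pairs and higher in 1 within the cells with Cajal-Retzius genes, and lower in 2 and higher in 2 in the remaining cells. Without these cells the WT fall from E12.5 to E17.5 was 0.58 on the log2 scale in Eomes-detected cells (adjusted p = 0.15) and 0.90 in Neurod6-detected cells (adjusted p = 0.0235), in place of 2.48 and 2.81.

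**Figure D3:**
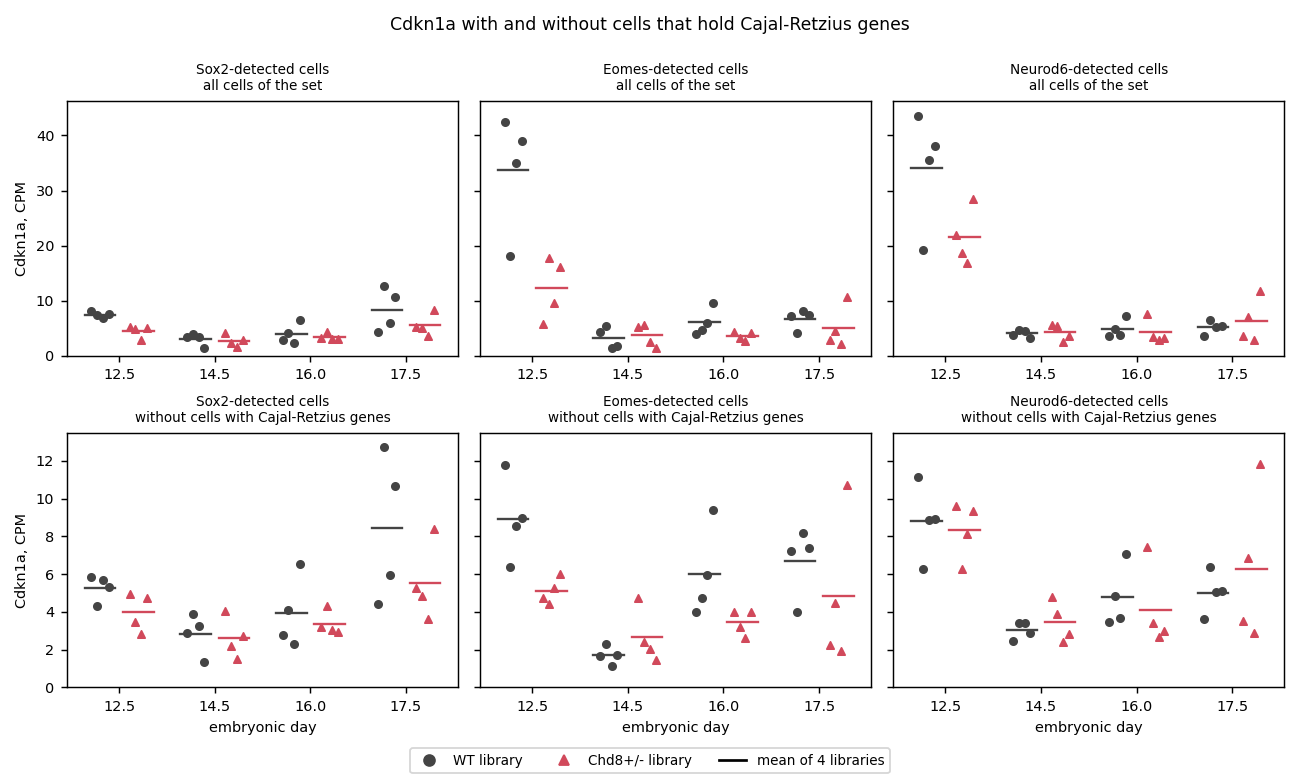
Cdkn1a in CPM (y axis, linear, with a different range in each row of panels) by embryonic day (x axis), for all cells of each set (top) and without cells that hold Cajal-Retzius genes (bottom). Points are libraries and bars means of 4. At E12.5 the WT mean of Eomes-detected cells is 33.6 CPM in the top row and 8.92 CPM in the bottom row.

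The question of the genotype comparison was whether these genes differ when 1 copy of Chd8 is lost. Averaged over the 4 stages, edgeR called 0 of the 9, 8 and 9 members tested in Sox2-, Eomes- and Neurod6-detected cells, where it called 0.514%, 0.289% and 0.226% of all genes. DESeq2 also called none, and 1, 4 and 1 members had an unadjusted p under 0.05, beside 1204 of 13812, 1154 of 13127 and 843 of 14592 genes. Trp53 was the most regular of them: it was lower in the Chd8+/- library of 13, 15 and 14 of 16 pairs, and its mean was lower in all 12 combinations of set and stage. The size was small, -0.06 (95% interval -0.14 to 0.03), -0.12 (-0.23 to -0.01) and -0.13 (-0.25 to -0.01) on the log2 scale, with adjusted p = 0.811, 0.55 and 0.844, or 0.464, 0.152 and 0.0930 with the pairs assumed from the titles as a block. How many of all genes reach such pair counts was not counted. In thinned cells the mean share with a Trp53 UMI was higher in Chd8+/- in Sox2-detected cells at E14.5 (30.8% against 29.1% in WT) and lower in every other combination, by little in Sox2-detected cells at E16.0 and E17.5. Cdkn1a was -0.42 (-0.73 to -0.10), -0.58 (-1.0 to -0.16) and -0.12 (-0.47 to 0.23), with adjusted p = 0.398, 0.372 and 1.00.

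The interval of Mdm2, which p53 induces and which removes p53, was -0.07 to 0.16 in Sox2-detected, -0.12 to 0.08 in Eomes-detected and -0.12 to 0.12 in Neurod6-detected cells, around values of 0.05, -0.02 and -0.00. Bax (0.03, 0.08 and 0.06) and Bbc3 (0.04, 0.08 and 0.07) were likewise close to 0. Ccng1 (-0.16, -0.23 and -0.08), Sesn2 (-0.17, -0.38 and -0.21) and Phlda3 (-0.09, -0.15 and -0.11) had negative values in all 3 sets, none called. The median over the members tested was -0.09, -0.14 and -0.11, beside medians over all genes of 6.38e-04, -0.00276 and -0.00394. The sets share cells and libraries, so their agreement is not independent.

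**Figure D4:**
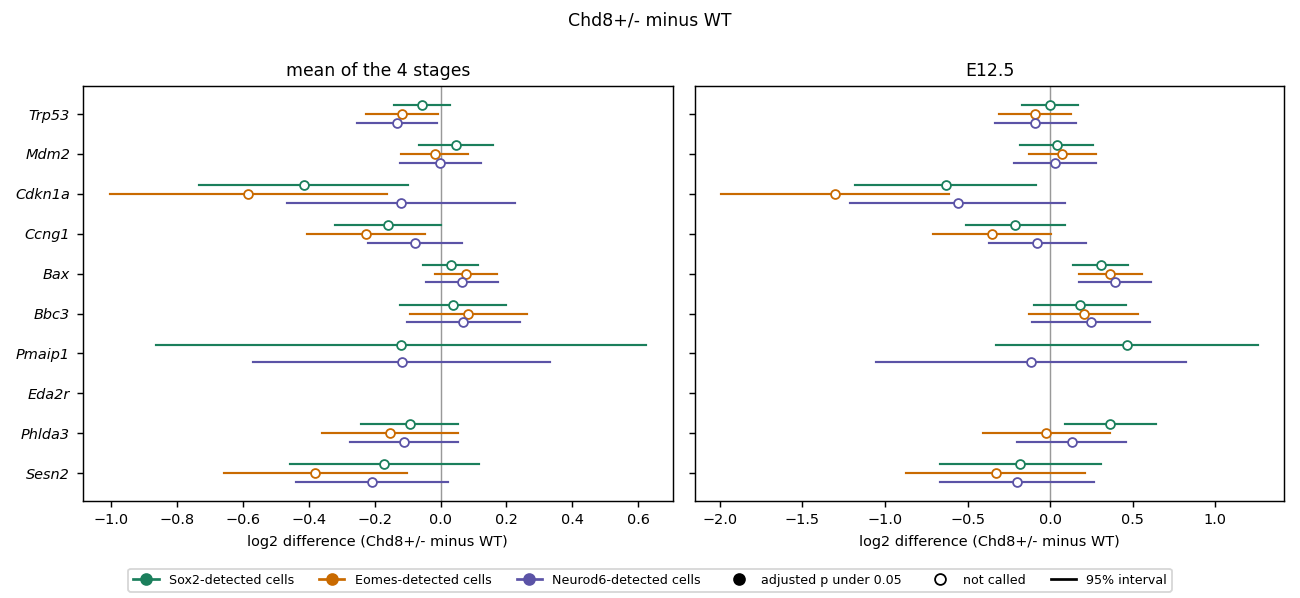
Log2 difference between Chd8+/- and WT libraries (x axis) for each gene, as the mean of the 4 stages (left) and at E12.5 (right, on a wider axis), with bars of the 95% interval. All circles are open, since no adjusted p was under 0.05. At E12.5 the bars of Bax lie to the right of 0 in each cell set and the bars of Cdkn1a to the left in the Sox2- and Eomes-detected sets.

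At E12.5 the members that stood out were Cdkn1a, with lower values in Chd8+/- libraries, and Bax, with higher ones, although edgeR called neither in the fit of all libraries by stage and genotype alone. Other settings called them, as given with each gene below. In Eomes-detected cells Cdkn1a was 42.5, 18.2, 34.9 and 39.0 CPM in WT M1, M2, F1 and F2 and 5.66, 17.7, 9.64 and 16.2 CPM in the matched Chd8+/- libraries. All 4 pairs were lower in Chd8+/-, the M2 pair by little, and the groups did not overlap. The number of all genes that separate the groups in this way at E12.5 was not counted. By edgeR 1881 of 13127 genes had an unadjusted p under 0.05 in this set and stage. The log2 difference of Cdkn1a was -1.30 ± 0.35 (95% interval -1.99 to -0.62, adjusted p = 0.0687), and it was called with the pairs as a block (-1.22, adjusted p = 0.0199). In Sox2-detected cells, where the Chd8+/- libraries had 5.19, 4.82, 2.82 and 4.97 CPM against 6.84 to 8.04 CPM in WT, it was -0.63 ± 0.28 (adjusted p = 0.224), and -0.66 with the block (adjusted p = 0.0432). In Neurod6-detected cells, with 21.8, 18.7, 16.9 and 28.4 CPM in Chd8+/- libraries, it was -0.56 ± 0.33 (adjusted p = 0.498). Without the cells that held Cajal-Retzius genes the values were -0.30, -0.76 and -0.00 (adjusted p = 0.627, 0.324 and 1.00). Whether fewer such cells or less Cdkn1a in each of them makes the difference was not tested.

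Bax (ENSMUSG00000003873, chromosome 7, 45461697 to 45466898) in Sox2-detected cells of the E12.5 libraries M1, M2, F1 and F2 was 274, 275, 273 and 279.7 CPM in WT and 333, 272, 348 and 323 CPM in Chd8+/-. In Eomes-detected cells it was 294, 283, 293 and 306 CPM in WT and 356, 297, 412 and 347 CPM in Chd8+/-. The Neurod6-detected values were 330.1, 309, 328 and 341 CPM in WT and 399, 306, 469 and 411 CPM in Chd8+/-. In each set the Chd8+/- libraries M1, F1 and F2 lay above all WT libraries while Chd8+/- M2 lay below all WT libraries in the Sox2- and Neurod6-detected sets and above 3 of the 4 in the Eomes-detected set. The log2 differences were 0.31 ± 0.09, 0.36 ± 0.10 and 0.39 ± 0.11 (adjusted p = 0.0604, 0.0659 and 0.12). With the pairs as a block they were 0.28, 0.32 and 0.35 and were called (adjusted p = 0.0198, 0.0254 and 0.0323), and DESeq2 called Bax in all 3 sets (adjusted p = 0.00763, 0.00592 and 0.0131).

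By edgeR with neither the block nor a sex term 0 of 9, 0 of 8 and 0 of 9 members were called at E12.5, against 1.32%, 0.457% and 0.0343% of all genes, and 3, 2 and 1 members had an unadjusted p under 0.05, beside 2500 of 13812, 1881 of 13127 and 1893 of 14592 genes. The block called 2, 2 and 1 members, where it called 2058 of 14306, 758 of 13642 and 671 of 15119 genes. DESeq2 called 1, 1 and 1 members and 969 of 13812, 481 of 13127 and 382 of 14592 genes. A term for sex called Bax in Sox2-detected cells (adjusted p = 0.0392). Leaving out the 3 libraries that stood apart at E17.5 called Bax in the Sox2- and Eomes-detected sets (adjusted p = 0.0338 and 0.0368) and Cdkn1a in the latter (adjusted p = 0.0362). For the sex term and for the fit without those 3 libraries the number of all genes called is not given here. Nothing about the members is read from their calls. The pairs are read from the numbers in the titles, and at E12.5 WT F1 in each set and WT F2 in the Sox2- and Eomes-detected sets correlated best with a Chd8+/- library other than their partner. A single library decided these counts: without Chd8+/- M2 at E12.5 the test called Bax (0.41) and Phlda3 (0.48) in Sox2-detected cells, Bax (0.45), Cdkn1a (-1.53) and Ccng1 (-0.66) in Eomes-detected cells and Bax (0.50) in Neurod6-detected cells. The genes called without it rose to 1888 of 13998, 1293 of 13335 and 1460 of 14740. That library had a median depth of 9604.5 UMIs in Eomes-detected cells, against 5659, 3739 and 5802 UMIs in Chd8+/- M1, F1 and F2 and 7780 to 9633 UMIs in WT. The shallowest library, Chd8+/- F1, had the highest Bax and the lowest Chd8 of the 8. With every cell thinned to 2000 UMIs Bax was 0.29, 0.35 and 0.34 higher on the log2 scale in the 3 sets and was called in none. Thinned Sox2-detected cells had a Bax UMI in 40.6 to 51.1% of cells in Chd8+/- and 41.1 to 43.7% in WT libraries. The mean share of thinned cells with a Cdkn1a UMI was 0.864%, 1.73% and 2.38% in WT and 0.754%, 1.49% and 2.46% in Chd8+/- libraries of the 3 sets. The makeup of the Eomes-detected cells varied more among Chd8+/- libraries: summed radial glia markers were 1156 to 2284 CPM against 1940.2 to 2153 CPM in WT, intermediate progenitor markers 2881 to 5460.0 CPM against 3193 to 4015 CPM, and erythroid markers 36.3 to 5732 CPM against 859.8 to 5952 CPM. The part of library depth and of this makeup in the Bax and Cdkn1a values was not tested further.

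At E14.5, E16.0 and E17.5 edgeR called 0 members in any set, with 0, 0 and 0 members (E14.5), 1, 0 and 0 (E16.0) and 0, 1 and 1 (E17.5) at an unadjusted p under 0.05 in the Sox2-, Eomes- and Neurod6-detected sets. Of all genes, 301, 277 and 165 stood at that level for E14.5, with 307, 225 and 172 for E16.0 and 713, 768 and 535 for E17.5. DESeq2 called none of them either. Phlda3 in Sox2-detected cells at E16.0 was the member with the cleanest separation, and was picked for it after the values were seen. WT libraries had 14.9, 14.1, 15.4 and 15.5 CPM and Chd8+/- libraries 11.6, 11.3, 11.1 and 11.4 CPM. The groups did not overlap, but the log2 difference of -0.40 had an adjusted p of 1.00 over all genes. In thinned cells, where depths are equal, the share with a Phlda3 UMI did overlap. It was 2.10 to 3.34% in WT and 1.95 to 3.05% in Chd8+/- libraries. How many of all genes separate the groups in this way was not counted. The share of all genes called was 0% in each set at E14.5. It was 0.0217%, 0.00762% and 0% at E16.0, and for E17.5 it was 0%, 0.0152% and 0%. The joint test of whether the genotype difference changes with stage called 0% of all genes in each set and none of the members (2, 1 and 1 at an unadjusted p under 0.05, beside 843, 605 and 551 of all genes). Without Chd8+/- M2 at E12.5 it called Bax in the Sox2- and Neurod6-detected sets (adjusted p = 0.0387 and 0.0417). The number of all genes that the joint test then called is not given here, so nothing about Bax is read from that call. With all libraries the E12.5 differences in Bax and Cdkn1a are not shown to differ from those of later stages.

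Single genes of the p53 lists were rarely called for genotype. Averaged over stages none of the 26 regulators, of the 38, 34 and 36 other targets, of the 20 Bcl2 family members and caspases or of the 22 cell cycle genes was called in any set. The list medians lay between -0.04 and 0.05 on the log2 scale. At E12.5 the only call in these lists was Chd7, the closest relative of Chd8, at -0.61 ± 0.16 in Sox2-detected cells (adjusted p = 0.0484). Summed levels at E12.5 overlapped between the genotypes for other p53 targets in each set, with 1560 to 1614 CPM in Chd8+/- and 1553 to 1611 CPM in WT libraries of the Sox2-detected set, 1833 to 2075 and 1855 to 1988 CPM in the Eomes-detected set and 1567 to 1794 and 1635 to 1729 CPM in the Neurod6-detected set. Those of cell cycle and stress genes overlapped as well. The sums of regulators did not. The 28 regulators, Trp53, Mdm2 and Chd8 included, summed to 6847 to 8362 CPM in Chd8+/- and 8664 to 9249 CPM in WT libraries of the Sox2-detected set, 5684 to 7520 and 7805 to 8257 CPM in the Eomes-detected set and 5527 to 7394 and 7665 to 7785 CPM in the Neurod6-detected set. These sums hold the abundant ribosomal protein genes Rpl5, Rpl11 and Rpl23, of which Rpl23, named after its values were seen, was at -0.23, -0.27 and -0.25 (adjusted p = 0.273, 0.277 and 0.348). The part of these ribosomal protein genes in the difference of the sums was not tested, and nothing about the regulation of p53 is read from it. The Bcl2 family and caspases summed to 773 to 834 CPM in Chd8+/- and 718 to 755 CPM in WT Sox2-detected cells, and overlapped in the other sets. For neither list was it counted how many other sums of genes separate the genotypes in this way.

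Cells with a Cdkn1a UMI were then compared with the other cells of the same library and set, after thinning of each cell to 2000 UMIs, to see which members share cells with Cdkn1a. There were 196, 139 and 513 Cdkn1a-detected cells among 27138, 20335 and 72455 thinned cells of the Sox2-, Eomes- and Neurod6-detected sets. Genes with few counts can pass the filter on low counts through the Cdkn1a-detected sums in which they are high. Pmaip1 and Eda2r are the rarest and are described apart, but the same can hold for Phlda3, Bbc3 and Ccng1. Of the members tested other than Pmaip1 and Eda2r, 3 of 7 were higher in Cdkn1a-detected cells in each set and none was lower with library sizes alone as the scaling, where 0.337%, 1.05% and 0.981% of all genes were called higher. Without the filter 2, 3 and 2 members were called higher, beside 15 of 19813, 76 of 19147 and 95 of 21863 genes. With Pmaip1 and Eda2r counted, TMM factors called 4, 3 and 5 members higher and 3, 3 and 2 lower, and DESeq2 2, 2 and 4 higher and 3, 3 and 3 lower. Those scalings called 4633 of 9509, 4417 of 9233 and 4274 of 12130 genes lower (TMM) and 5859, 5833 and 6410 lower (DESeq2), so that nothing about the members is read from their lower calls. Cdkn1a chose the cells and was not tested.

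Phlda3, Bbc3 and Ccng1 were the members called in each of the 3 sets. Phlda3 was higher by 1.79 ± 0.33, 4.16 ± 0.36 and 2.98 on the log2 scale (adjusted p = 0.00459, 6.12e-15 and 1.64e-13). Bbc3 was higher by 1.72 ± 0.32, 2.76 and 1.17 (adjusted p = 0.00795, 4.06e-10 and 1.81e-04), and Ccng1 by 1.69 ± 0.33, 1.96 and 1.19 (adjusted p = 0.00929, 0.0051 and 0.0164). Without the filter on low counts Ccng1 lost its call in the Sox2- and Neurod6-detected sets (adjusted p = 0.0698 and 0.0933). Pmaip1 was called in Sox2-detected cells (3.68 ± 0.67, adjusted p = 0.0369) and Eda2r in Neurod6-detected cells (3.93 ± 0.76, adjusted p = 0.0451), the one set in which Eda2r passed the filter. Neither was called without the filter (adjusted p = 0.119 and 0.0816). Sesn2 had values of 1.97, 1.73 and 1.94 with wide errors and was not called (adjusted p = 0.23, 0.563 and 0.106). With all UMIs it was among 8 of 9 members called higher in Sox2-detected cells, beside 2087 of 14727 genes. In the other 2 sets 7 of 9 and 6 of 9 members were then called higher, beside 2507 of 13336 and 3297 of 14021 genes. At 4000 UMIs the count was 6 of 8 in each set, beside 271 of 11663, 452 of 11023 and 684 of 12449 genes.

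Trp53 itself and its inhibitor Mdm2 were not called in the thinned cells. Trp53 differed by 0.27, 0.35 and 0.05 and Mdm2 by -0.29, -0.24 and 0.16, none called, and Bax by 0.17, 0.56 and 0.25, with the nearest to the threshold in Eomes-detected cells (adjusted p = 0.0604). With all UMIs Trp53 was called in Sox2-detected cells (0.13, adjusted p = 0.0331) and Bax in the Sox2- and Eomes-detected sets (0.25 and 0.16), where 3023 of 14727 and 3466 of 13336 genes were called, and Mdm2 was at -0.12, -0.04 and -0.04, not called. In those all-UMI fits the endothelial marker Cldn5 was 6.18, 6.80 and 7.57 higher in Cdkn1a-detected cells of the 3 sets. The part of endothelial cells in the all-UMI calls was not tested. The signs of Trp53, Bax and Mdm2 depend on the scaling. The main values use library sizes alone, which leave the median of all genes at 0.04, 0.06 and 0.03, whereas TMM and DESeq2 factors moved that median to -0.79, -0.88 and -0.48 and to -1.01, -1.12 and -0.66. Under both of those scalings Trp53 and Bax were called lower in all 3 sets and Mdm2 in the Sox2- and Eomes-detected sets, Mdm2 in Neurod6-detected cells was called at -0.64 by DESeq2 alone, and DESeq2 put Ccng1 in Neurod6-detected cells at -0.05. Phlda3 was positive under each scaling in each set. Set against the median of all genes, Trp53 lay above it with library sizes alone and with TMM and below it with DESeq2 in each set.

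**Figure D5:**
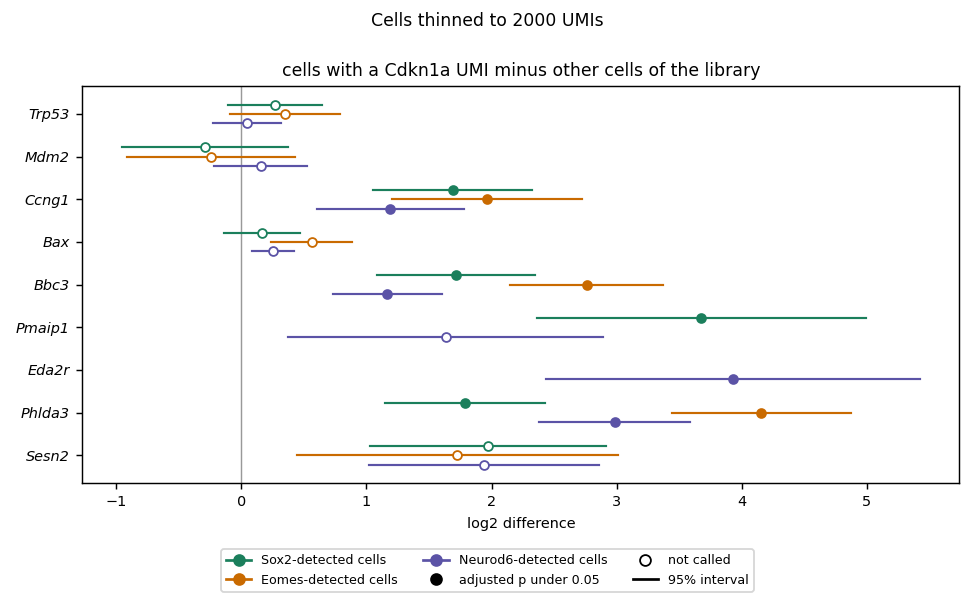
Log2 difference (x axis) between cells with a Cdkn1a UMI and the other cells of the same library and set, all thinned to 2000 UMIs, with bars of the 95% interval and filled circles for an adjusted p under 0.05. Phlda3, Bbc3 and Ccng1 are filled in all 3 sets, Phlda3 in Eomes-detected cells being highest of these at 4.16, while Trp53 and Mdm2 lie near 0 with library sizes alone as the scaling and below 0 in the Sox2- and Eomes-detected sets with TMM or DESeq2 factors.

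Markers of other cells moved with this comparison. Cells with Cajal-Retzius genes were 2.55%, 23.0% and 14.8% of the Cdkn1a-detected cells and 0.590%, 1.27% and 1.85% of the others. Among other called genes with a mean of at least 3 on the log2 CPM scale, the largest differences were those of Rspo3 (2.63), Nhlh2 (2.24), Rem2 (1.93) and Olig2 (1.83) in Sox2-detected cells, Rspo3 (4.81), Calb2 (3.41) and Reln (2.98) in Eomes-detected cells and Reln (2.37), Calb2 (2.06) and Rcan2 (1.93) in Neurod6-detected cells. Without the cells with Cajal-Retzius genes, where 43 of 9435, 21 of 8798 and 57 of 11795 genes were called, the members called apart from Pmaip1 and Eda2r were Phlda3 (1.64) and Bbc3 (1.69) in Sox2-detected cells, Phlda3 (3.36), Bbc3 (2.31) and Ccng1 (2.26) in Eomes-detected cells and Phlda3 (2.24) in Neurod6-detected cells. With cells of other types left out as well the counts were 1, 3 and 1, beside 10 of 7993, 17 of 8695 and 20 of 11584 genes. In Sox2-detected cells, where 158 of the 196 Cdkn1a-detected cells were left, Bbc3 (1.81) was the one called, and Phlda3 (1.46, adjusted p = 0.307), Ccng1 (1.66, adjusted p = 0.109) and Pmaip1 (3.41, adjusted p = 0.277) lost their calls. With E12.5 libraries alone the counts were 0, 3 and 4, beside 27 of 9268, 323 of 6818 and 284 of 9598 genes, and without E12.5 they were 2, 3 and 3, beside 18 of 8664, 76 of 8199 and 138 of 11692 genes. Eda2r is 1 of the last 3. Without Chd8+/- E16.0 M2 the Sox2-detected count was 1 (Phlda3, 1.63). The Neurod6-detected count was 2, Phlda3 and Bbc3, without WT E12.5 M1, WT E12.5 F1, Chd8+/- E12.5 F2 or Chd8+/- E16.0 M2.

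Of the wider lists in the same comparison, none of 25 other p53 targets was called in Sox2-detected cells, 2 of 28 were higher in Eomes-detected cells (Pvt1, +4.10, and Psrc1, +1.28) and 6 of 36 in Neurod6-detected cells, among them Pltp (+3.16), Pvt1 (+3.01), Perp (+2.86) and Pidd1 (+2.23). Of all genes 0.337%, 1.05% and 0.981% were called higher in the 3 sets. Pvt1, Pltp, Perp and Pidd1 had means below 3 on the log2 CPM scale, and such genes can pass the filter through the Cdkn1a-detected sums. Perp encodes a membrane protein of p53-dependent apoptosis and Pidd1 a death-domain protein that p53 induces. Trp73, which is also one of the 6 Cajal-Retzius genes, was 5.77 and 4.94 higher in the Eomes- and Neurod6-detected sets. The pro-apoptotic Bok (+1.35) was called in Eomes-detected and Bcl2l11 (+1.32) in Neurod6-detected cells. Of the 22 cell cycle genes, 3 were lower in Cdkn1a-detected cells of the Sox2-detected set, the mitotic genes Cenpf (-0.99), Ccnb1 (-0.98) and Cdc20 (-0.68), and none in the other sets. Of all genes 23 of 9509, 18 of 9233 and 29 of 12130 were called lower in the 3 sets. Replication genes had positive values in places. Of the list, Pcna and Mcm5 were higher without the E12.5 libraries in the Eomes-detected (1.46 and 1.59) and Neurod6-detected sets (0.82 and 1.27), with library sizes alone as the scaling. Outside the list, and named after their values were seen, the histone gene Hist1h1b (+1.59) was higher in Neurod6-detected cells. Without cells of Cajal-Retzius genes or other types Mcm3 (+0.78) was higher in the Sox2-detected set, Tk1 (+1.36), Lig1 (+1.23) and Pclaf (+0.90) in the Eomes-detected set and Pclaf (+1.07), Mcm2 (+1.00), Mcm6 (+0.99) and Tyms (+0.80) in the Neurod6-detected set. Stress genes gave Fos (+1.04) in Sox2-detected cells and Atf3 (+2.11) and Jun (+0.51) in Neurod6-detected cells.

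The share of cells with a Cdkn1a UMI after thinning gave no call between the genotypes. Averaged over stages it was 0.765% in WT and 0.637% in Chd8+/- libraries for Sox2-detected cells (difference -0.13 percentage points, permutation p = 0.401, adjusted over the 3 sets 0.668), 0.758% and 0.753% for Eomes-detected cells (permutation p = 0.97) and 0.956% and 1.05% for Neurod6-detected cells (permutation p = 0.445). Thinning left few Cdkn1a UMIs, and the Sox2-detected difference was -0.858 percentage points with all UMIs (permutation p = 0.0041) and -0.455 at 4000 UMIs (permutation p = 0.0247), so it depends on the depth kept. With all UMIs the Cdkn1a-detected cells of this set also had more RNA of the endothelial marker Cldn5 (6.18 higher on the log2 scale). The part of endothelial cells in the share difference was not tested. At single stages and 2000 UMIs the smallest exact two-sided p that 4 against 4 libraries allow, 0.0286, was reached once, in Eomes-detected cells at E14.5, with 0.159% in WT and 0.521% in Chd8+/- libraries (adjusted 0.343). That value rests on 1 cell with Cdkn1a in each WT library and 5, 5, 2 and 2 cells in the Chd8+/- ones, and the exact p was 0.343 with all UMIs and 0.2 at 4000 UMIs. In Sox2-detected cells it was also reached with all UMIs at E12.5 (4.36% in WT and 2.55% in Chd8+/- libraries) and at 4000 UMIs at E17.5 (2.75% and 1.53%). The all-UMI shares compare cells of unequal depth. In Sox2-detected cells at E12.5 the mean of the libraries' median depths was 10482 UMIs in WT and 7426 in Chd8+/-. At 4000 UMIs the E12.5 difference was -0.44 percentage points (exact permutation p = 0.314). No cell class that lacks Cdkn1a was at hand as a measure of free RNA: of the 727 cells with microglial or endothelial markers 53.8% had a Cdkn1a UMI.

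As a description of shape alone, the course of 3 members over the 12 WT means (3 sets by 4 stages) was set against 6277 or 6278 other genes with a mean of at least 20 CPM. The courses most like that of Trp53 were those of Ift52 (Pearson r = 0.98), Katna1 (0.98), Poglut1 (0.98), Dhx40 (0.97) and Lta4h (0.97). For Cdkn1a they were Zfp41 (0.95), Mzt1 (0.93), Wdr37 (0.90), Gadd45a (0.86) and Armc1 (0.86), and for Ccng1 Dnlz (0.89), Rps19bp1 (0.88), Med30 (0.86), Rex1bd (0.85) and Peg3 (0.82). The 12 points share libraries, cells and depth, so no p is given. Gadd45a, itself a p53 target, was the only gene of the p53 lists among those 15.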

How the data were processed

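The authors deposited UMI counts per gene and cell barcode (10x Genomics 3′ chemistry, v2, per the labels), made with STAR 2.7.9a, STARsolo and Cell Ranger on mm10, per the submitters' processing notes. The values are whole-number counts with no normalization. Of 145082 barcodes, 143697 had at least 1000 UMIs, 500 genes and at most 10% mitochondrial counts, and 5471 doublet-like cells were removed (simulated doublets, 0.8% per 1000 cells), which left 138226. Libraries held 1.47e+07 to 6.65e+07 UMIs. Counts were summed per library and cell set and tested with edgeR 4.0.16 in R 4.3.3 (quasi-likelihood, TMM factors, its default filter on low counts, Benjamini-Hochberg over all genes tested, called at 0.05). All 8 groups shared 1 fit per set. DESeq2 1.42.0 was an alternative. For Cdkn1a-detected against other cells, library sizes alone replaced the TMM factors that had been planned, since TMM failed on simulated sparse sums, and TMM is given as an alternative chosen after that.

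The 12378 barcodes found in more than 1 library overlapped by at most 66 cells for any pair. Gene positions are from GENCODE M21, in which 99.85% of the gene IDs were found, and promoters from RefSeq. WT and Chd8+/- embryos were matched by litter and sex per the labels' protocols. Which libraries form a pair was assumed from the titles (same stage, sex and number), and deviations of the 2 libraries of a pair correlated above 0.1 in 15, 15 and 16 of 16 pairs in the Sox2-, Eomes- and Neurod6-detected sets. Lists of p53 regulators, other p53 targets, the Bcl2 family and caspases, cell cycle genes, stress genes and cell type markers were fixed, and each list's genes named are the up to 4 called with the largest change in each direction; a gene this rule would name is not reported here. The members and lists were chosen with earlier results of these data known. The single cells of a library are not replicates, and each library is 1 embryo.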

Additional observations from a re-analysis of the deposited data

Results flagged for a closer look

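In 264 groups of 4 libraries, 11 held 1 library far from the other 3 by Dixon's criterion, which chance alone gives for about 1 group in 20. The values are given without an explanation. In Sox2-detected cells Chd8+/- F1 at E12.5 had the lowest Cdkn1a of its group (2.82 CPM, the others 4.82 to 5.19) and Chd8+/- M2 at E16.0 the highest (4.28 CPM, the others 2.99 to 3.17). Chd8+/- M2 at E12.5, the library with another code, had the highest Ccng1 (17.8 CPM, the others 10.7 to 11.9). Chd8+/- F1 at E14.5 had the lowest Bax (266.8 CPM, the others 279.3 to 281.8) and Chd8+/- M2 at E14.5 the lowest Pmaip1 (0.0627 CPM, the others 0.342 to 0.392). WT F2 at E12.5 had the lowest Eda2r in Sox2-detected cells (0.122 CPM, the others 0.214 to 0.223), and Chd8+/- M1 at E12.5 was the only library of its group with any Eda2r in Eomes-detected cells (0.227 CPM). In Neurod6-detected cells Chd8+/- M1 at E16.0 had the highest Cdkn1a (7.52 CPM, the others 2.76 to 3.40), WT M2 at E14.5 the highest Phlda3 (6.37 CPM, the others 5.31 to 5.36) and Chd8+/- F2 at E14.5 the lowest Sesn2 (1.35 CPM, the others 2.06 to 2.17). The share of thinned Eomes-detected cells with a Cdkn1a UMI was highest in Chd8+/- M1 at E12.5 (1.74%, the others 1.40 to 1.42%), although the same library had the lowest Cdkn1a CPM in that set.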

How the results depend on the processing

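Pairing the libraries by the sex and number in their titles, an assumed litter pairing (replicate block), raised the members called for genotype at E12.5 from 0 to 2, 2 and 1 in Sox2-, Eomes- and Neurod6-detected cells. It changed no other call count of members between genotypes. A library's own partner was its best match in 11, 12 and 14 of 16 pairs. DESeq2 gave 1, 1 and 1 there, sex as a term 1 in Sox2-detected cells, and leaving out the M2 pair at E12.5 gave 2, 2 and 1. Leaving out the 3 libraries that stood apart at E17.5 gave 1 and 2 in the Sox2- and Eomes-detected sets. Leaving out each replicate in turn gave 0 to 2, 0 to 3 and 0 to 1 at E12.5, and 0 to 1 for genotype by stage in the Sox2- and Neurod6-detected sets. Where the share of all genes called is not given above, nothing about the members is read from these counts.

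For WT E14.5 against E12.5 the count became 1 with thinned cells in the Sox2-detected set and 1 with exclusive cells in the Eomes-detected set. In the Neurod6-detected set it became 1 with at least 2 UMIs of the marker, with thinned cells and without cells of Cajal-Retzius genes, alone or with other cell types. For E16.0 against E14.5 it was 1 in Eomes-detected cells without Cajal-Retzius genes. For E17.5 against E16.0 it was 1 in Sox2-detected cells (2 UMIs, thinned). In Eomes-detected cells it was 0 (exclusive, thinned, no filter), 2 without the 3 libraries apart and 0 to 2 over single libraries. In Neurod6-detected cells it was 2 thinned, 0 without the filter or without those cell types, and 0 to 1 over single libraries. For E17.5 against E12.5 it was 1 (exclusive) and 0 (without those cell types) in Eomes-detected cells, and 3 (2 UMIs) and 3 to 6 over single libraries in Neurod6-detected cells. In exclusive cells Bbc3 in the Eomes-detected set became 0.071 and Trp53 in the Neurod6-detected set 0.048. For the cell sets, DESeq2 called 5 of 10 members in Eomes minus Sox2, beside 5440 of 14284 genes. With thinned cells 5 of the 7 members then tested were called in Neurod6 minus Sox2, beside 8330 of 10795 genes. Thinned Cdkn1a was -0.79 (Eomes minus Sox2) and 0.85 (Neurod6 minus Eomes).

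For Cdkn1a-detected cells the members called were 7, 6 and 7 with TMM factors, 8 and 7 with unthinned cells (Sox2, Eomes), 6 at 4000 UMIs (Eomes) and 5 and 7 by DESeq2 (Eomes, Neurod6). They were 2 and 2 without the filter (Sox2, Neurod6), 0 with E12.5 alone and 2 without E12.5 (Sox2), 1 without cells of Cajal-Retzius genes (Neurod6), 1 and 1 when those of other cell types were left out too (Sox2, Neurod6), and 1 to 4 and 2 to 4 over single libraries. Trp53 was -0.56, -0.62 and -0.47 with TMM and -1.05, -1.30 and -0.76 by DESeq2. Bax was -0.69, -0.44 and -0.28 with TMM and -1.18, -1.15 and -0.59 by DESeq2, and in Neurod6-detected cells DESeq2 gave Mdm2 -0.64 and Ccng1 -0.048. The median of all genes was below 0 under both of these scalings. The Sox2-detected share difference was -0.858 unthinned and -0.455 at 4000 UMIs. Over all alternatives 1532 counts and shares were unchanged within the limits set, 71 moved and 2 gained a call, and of single genes 5100 kept their side of the threshold, 130 lost a call, 100 gained one and 18 turned. The cause of the other changes was not tested. Alternatives on single libraries, library codes and Cajal-Retzius genes were chosen after the data were seen. Pmaip1 and Eda2r rest on few molecules, and differences in them were often not detectable at this depth.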

Other observations

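The 12495 cells with none of Sox2, Eomes and Neurod6 were not part of the comparisons above. At E12.5 they had Cdkn1a at 60.3 ± 11.3 CPM in WT and 20.6 ± 7.60 CPM in Chd8+/- libraries (SD, n = 4), lower in all 4 pairs. Their makeup also differed: summed fibroblast markers were 1010 ± 242 and 390.0 ± 209.6 CPM, endothelial markers 263 and 86.3 CPM and erythroid markers 82938 and 34248 CPM in WT and Chd8+/-. The part of that makeup in the Cdkn1a values was not tested. Over all stages Phlda3 was lower in the Chd8+/- library of 15 of 16 pairs in these cells, and the other members in 7 (Trp53) to 12 (Sesn2) of 16. Phlda3 was picked after the values were seen and was not tested here, and how many of all genes reach 15 pairs was not counted. The makeup of these cells at later stages is not given.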
